A study of Mus musculus with 21 samples.

Results

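Respiratory complexes II, III and IV are the succinate dehydrogenase, the cytochrome bc1 complex and the cytochrome c oxidase of the inner mitochondrial membrane. The genes were taken by symbol: 37 of the 55450 genes of the count table, all nuclear, namely 4 subunits of complex II, 9 of complex III, cytochrome c (Cycs), 16 structural subunits of complex IV and 7 factors that assemble complex IV. All 37 passed the filter on low counts. Bulk RNA came from the left ventricle of male 129S6/SvEv mice at 12 weeks of age. The animals were either heterozygous for the Myh6 missense allele labelled Myh6+/R404Q (R403Q), a model of hypertrophic cardiomyopathy (HCM) in which every cell carries the allele, or wild-type littermates (WT). They ate a control diet (CD) or the same diet with the SGLT2 inhibitor empagliflozin (EMPA) at 0.15 mg per g, and the 4 groups held 5 (WT-CD), 7 (R403Q-CD), 4 (R403Q-EMPA) and 5 mice (WT-EMPA). Hearts were taken after 2 weeks on the diet, as the methods have it; a general label text gives 16 weeks, more than the age of these mice allows. By the cage number in the labels, no cage (4 with CD, 3 with EMPA) held both diets, so that cage and diet cannot be told apart, whereas mice of both genotypes shared all cages but 1, which held 3 of the 5 WT-EMPA mice and no R403Q mouse.

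Complex II passes electrons from succinate to ubiquinone and is also an enzyme of the tricarboxylic acid cycle. Complex III hands electrons from ubiquinol on to cytochrome c, and complex IV passes them from cytochrome c to oxygen. In the heart, which has many mitochondria, complex IV holds subunits that exist in pairs: Cox6a2, Cox7a1 and Cox8b are the forms of heart and skeletal muscle, and Cox6a1, Cox7a2 and Cox8a their widely expressed partners. Cox4i1 is the common form of subunit 4, and Cox4i2 is a form found in lung, smooth muscle and pericytes. Core subunits of complexes III and IV that the mitochondrial genome encodes were not analysed here.

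The upstream sequences of the paired isoforms are shown because they carry the contrast between widely expressed and muscle forms, and that of Sdha because it held the most NRF1 matches of the 3 complex II genes with an entry (Sdhc had none). They are RefSeq sequences (GRCm38.p6), 250 bases ending just before the annotated start, 5′ to 3′ on the gene's own strand. Capitals mark matches on either strand to GCGCNTGCG, the core of the site of NRF1 (nuclear respiratory factor 1), or CCGGAAG, that of GABP, both known activators of respiratory genes.
Cox6a1, chr5:115348959-115349208, minus strand: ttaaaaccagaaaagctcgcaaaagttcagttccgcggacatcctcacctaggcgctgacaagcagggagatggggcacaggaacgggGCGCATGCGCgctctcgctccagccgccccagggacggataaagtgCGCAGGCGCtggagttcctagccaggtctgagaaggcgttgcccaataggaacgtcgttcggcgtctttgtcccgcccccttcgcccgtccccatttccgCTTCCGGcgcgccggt
Cox7a1, chr7:30183921-30184170, plus strand: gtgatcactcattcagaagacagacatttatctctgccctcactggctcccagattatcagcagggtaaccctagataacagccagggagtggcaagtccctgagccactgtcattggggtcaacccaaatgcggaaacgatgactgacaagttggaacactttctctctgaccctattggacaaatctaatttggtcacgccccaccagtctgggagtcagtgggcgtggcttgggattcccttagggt
Cox7a2, chr9:79759854-79760103, minus strand: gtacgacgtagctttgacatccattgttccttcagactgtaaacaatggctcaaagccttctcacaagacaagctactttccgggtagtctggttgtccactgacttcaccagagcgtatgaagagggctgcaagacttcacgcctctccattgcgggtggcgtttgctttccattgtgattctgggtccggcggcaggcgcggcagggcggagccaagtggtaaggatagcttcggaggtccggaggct
Cox8a, chr19:7217617-7217866, minus strand: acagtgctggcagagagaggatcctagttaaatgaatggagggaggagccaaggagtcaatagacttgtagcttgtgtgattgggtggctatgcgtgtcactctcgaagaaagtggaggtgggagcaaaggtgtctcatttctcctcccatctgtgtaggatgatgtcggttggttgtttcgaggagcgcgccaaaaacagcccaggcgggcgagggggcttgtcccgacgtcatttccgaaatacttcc
Cox8b, chr7:140900447-140900696, minus strand: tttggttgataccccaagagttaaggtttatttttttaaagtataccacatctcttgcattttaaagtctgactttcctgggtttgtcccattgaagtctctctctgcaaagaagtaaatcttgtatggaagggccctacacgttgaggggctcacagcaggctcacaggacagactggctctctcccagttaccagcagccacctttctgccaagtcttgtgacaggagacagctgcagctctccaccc
Sdha, chr13:74350241-74350490, minus strand: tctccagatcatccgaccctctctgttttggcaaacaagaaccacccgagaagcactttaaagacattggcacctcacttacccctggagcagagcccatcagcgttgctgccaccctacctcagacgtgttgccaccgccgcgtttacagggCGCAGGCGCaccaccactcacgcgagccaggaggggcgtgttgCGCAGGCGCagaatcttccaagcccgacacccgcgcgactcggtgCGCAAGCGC

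Of the 37 genes, 27 had an entry in the promoter table, and Cox4i1, Cox4i2, Cox6a2 and Sdhc were not among them. Over 300 bases (250 before to 50 after the start), the NRF1 core lay in 7 of the 27 (25.9%) and in 7.12% of 27025 genes, and the GABP core in 11 (40.7%) and 9.93%. The cores of the oestrogen-related receptor site (AAGGTCA, 3.7% against 5.38%), of YY1 (AAGATGG, 7.41% against 7.28%) and of MEF2 (CTAAAAATA, 0% against 0.588%) were searched on both strands in the same way, and matches that overlap were counted separately. Among the paired isoforms the muscle forms had fewer CpG dinucleotides: Cox8b had 2 and Cox7a1 7, whereas Cox8a had 19, Cox7a2 20 and Cox6a1 32, beside a median of 19 over the 27 genes and of 7 over 32851 promoters of all genes. The shares with a core were not adjusted for this difference in CpG content. Of the unpaired genes, Cox7b had 5. Cox7a1, Cox8b and Cox7a2 held none of the 5 cores, as did 8 unpaired genes. These matches are descriptions of letters, not of bound sites.

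Totals ran from 23491535 to 43539684 counts per mouse, and the 37 genes took 1.57% to 2.53% of them. The libraries were of heart: the summed level of 7 cardiomyocyte genes was 46257 to 94940 counts per 1000000 counts (CPM) in every mouse, whereas 5 skeletal muscle genes summed to at most 1.93 CPM and Ucp1 of brown fat, a tissue that also uses muscle forms of complex IV, was at most 0.104 CPM. The point mutation itself cannot be read from gene counts. R403Q-CD mouse 2 stood apart, with the lowest share of counts in the 37 genes, the lowest cardiomyocyte sum and the highest sum of 3 atrial genes (608 CPM). The atrial sum was 260 CPM in WT-CD mouse 5, 157 CPM in R403Q-CD mouse 6 and 2.12 to 78.1 CPM in the other mice. In bulk tissue, fewer cells of a type and less RNA per cell cannot be told apart.

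The level per length, as CPM per kilobase of exon (RPKM), ranged from abundant structural subunits to rare assembly factors. In the WT-CD mice, Cox6a2 was the highest at 2792 ± 232 RPKM (SD, n = 5), then Cox8b (1688 ± 165), Cox6b1 (1305 ± 112), Cox4i1 (1132 ± 96.6) and Cox7a1 (1024 ± 73.0). The ranges of Cox4i1 and Cox7a1 overlapped. Among complex III genes the highest was Uqcr11 (721 ± 69.8 RPKM), a small subunit, and the iron-sulphur protein Uqcrfs1 had 686 ± 60.2. The core protein Uqcrc1 had 299.5 ± 22.6. Of complex II, the flavoprotein Sdha (472 ± 29.3 RPKM), the membrane anchor Sdhd (426 ± 25.7) and the iron-sulphur protein Sdhb (423 ± 25.3) lay close together, and the other anchor, Sdhc, was lower at 189 ± 13.3. The assembly factors ran from Cox10, which makes haem O (28.6 ± 2.16 RPKM), down to the copper carrier Cox17 (3.16 ± 0.394). With the length of the principal transcript in place of all exons, a choice made after the data were seen, Cox6a2 stayed the highest (2792 RPKM) and Cox4i1 came second (2294). By that length Uqcrh (1342 RPKM) lay above Uqcr11 (1038), Uqcrc1 (749) above Uqcrfs1 (686), and Sdhb (829) and Sdha (672) above Sdhd (426). Of the assembly factors, Surf1 (33.1 RPKM) then lay above Cox10 (29.8), and Sco2 (3.44) below Cox17 (4.95). These orders thus depend on the length used.

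**Figure D1:**
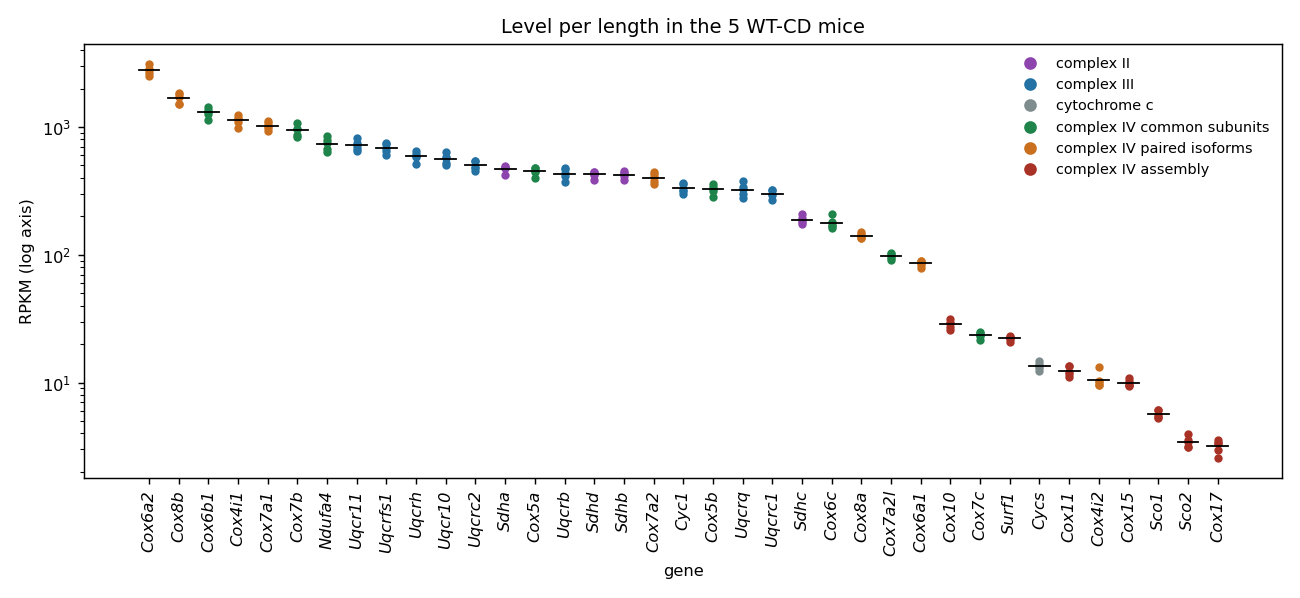
RPKM of the 37 genes in each of the 5 WT-CD mice (points) with their mean (bar), on a log axis, coloured by role. The structural subunits run from Cox6a2 at 2792 RPKM down, and the means of the assembly factors all lie at or below 28.6 RPKM.

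Some of these levels are uncertain because counting used uniquely aligned read pairs. Cox7c, a small subunit of complex IV, had 26.6 CPM in WT-CD mice, whereas 2 near-identical genes elsewhere in the genome (Gm12338, Gm10012) had 417 CPM, which is 94.1% of the sum. For cytochrome c the copies held 83.8% of the sum, for Cox7a2l 41.5%, for Uqcrb 40.1%, for Cox5b 27.9%, for Cox6c 20.8% and for Cox6a1 1.16%. Overlap of exons is a separate limit. The exons of Sco2 overlap those of Tymp on the same strand over 68.3% of their length. On the other strand, 48.3% of the exons of Cox11 lie opposite Tom1l1, and 19.7% of those of Uqcrc2 opposite Pdzd9. The study's methods describe counting on the same strand, by which genes on opposite strands would not share reads.

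The paired isoforms differed widely in level. Cox6a2, the muscle form of subunit 6A, gave in WT-CD mice 1797, 1713, 2129, 1944 and 1912 CPM, in R403Q-CD mice 1333 to 2255 (median 1833), in R403Q-EMPA mice 2429, 1680.0, 1895 and 1741, and in WT-EMPA mice 1482, 1667, 2225, 1923 and 1732. Its partner Cox6a1 gave in WT-CD mice 63.3, 55.7, 60.3, 58.7 and 63.2 CPM, in R403Q-CD mice 58.5 to 76.3 (median 64.3), in R403Q-EMPA mice 67.4, 63.0, 58.7 and 51.1, and in WT-EMPA mice 47.0, 47.5, 53.3, 57.6 and 50.6. The 4 groups overlapped for Cox6a2, and for Cox6a1 the WT-EMPA mice lay lowest, with 4 of 5 of them under every WT-CD mouse. Per length, Cox6a2 made up 97.0 ± 0.243% of the pair in WT-CD mice (SD, n = 5).

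Subunit 8 had the same order. Cox8b, the muscle form, gave in WT-CD mice 546, 545, 657, 669 and 622 CPM, in R403Q-CD mice 366 to 920.5 (median 612), in R403Q-EMPA mice 789.8, 579, 643 and 577, and in WT-EMPA mice 413, 477, 698, 616 and 477. Cox8a gave in WT-CD mice 83.6, 87.1, 93.0, 84.2 and 89.8 CPM, in R403Q-CD mice 83.9 to 97.2 (median 90.0), in R403Q-EMPA mice 99.5, 73.9, 89.0 and 81.9, and in WT-EMPA mice 67.8, 69.1, 88.8, 72.5 and 75.0. Cox8b varied most among the R403Q-CD mice, whereas Cox8a kept to a narrow range there. The muscle form took 92.2 ± 0.637% of the pair per length in WT-CD mice.

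Subunit 7A was the most even pair. Cox7a1, the muscle form, gave in WT-CD mice 543, 497, 579, 526 and 593 CPM, in R403Q-CD mice 243 to 689 (median 493), in R403Q-EMPA mice 541, 459.6, 462 and 465, and in WT-EMPA mice 393, 428, 475, 519.7 and 372. Cox7a2 gave in WT-CD mice 355, 338, 418, 383 and 402 CPM, in R403Q-CD mice 311 to 529.8 (median 386), in R403Q-EMPA mice 518, 401, 434 and 383, and in WT-EMPA mice 268, 326, 450.5, 376 and 317. The muscle form thus held 71.8 ± 0.906% of the pair per length in WT-CD mice.

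For subunit 4 the common form dominated. Cox4i1 gave in WT-CD mice 1784, 1534, 1934, 1699 and 1824 CPM, in R403Q-CD mice 1066 to 2015 (median 1692), in R403Q-EMPA mice 1807, 1607, 1726 and 1672, and in WT-EMPA mice 1532, 1509.6, 1693, 1664 and 1465. Cox4i2 was rare, with 7.91, 8.10, 7.57, 7.52 and 10.5 CPM in WT-CD mice, 6.0 to 9.81 (median 8.15) in R403Q-CD mice, 8.20, 8.83, 5.85 and 6.11 in R403Q-EMPA mice and 5.47, 7.07, 6.44, 8.05 and 5.87 in WT-EMPA mice. It made up 0.927 ± 0.142% of the pair per length in WT-CD mice, and 0.494 ± 0.0760% by the length of the principal transcript. Its groups overlapped, and the summed level of 6 pericyte and smooth muscle genes, 1262 to 1851 CPM in all mice, overlapped between all groups too.

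The ratio of the muscle (or, for subunit 4, the regulated) form to its partner was compared within each mouse, as log2 of the ratio of counts, with a two-sided exact permutation test. None of the 16 differences (4 pairs in 4 contrasts) passed after Benjamini-Hochberg adjustment over the 16. The smallest p was that of Cox7a1 over Cox7a2, which was 0.53 ± 0.06 (SD, n = 5) in WT-CD mice, each between 0.46 and 0.61, and 0.24 ± 0.30 (n = 7) in R403Q-CD mice, between -0.36 and 0.63. The difference of -0.30 had an exact permutation p of 0.0202 (adjusted p = 0.323), and 6 of the 7 R403Q-CD mice lay under every WT-CD mouse. Without R403Q-CD mouse 2 the difference was -0.20 (exact permutation p = 0.0346). In R403Q-EMPA mice this ratio was 0.16 ± 0.10 (n = 4), all below the WT-CD mice, and in WT-EMPA mice 0.34 ± 0.19 (n = 5). R403Q-EMPA and WT-CD mice differ in both genotype and diet and were not tested against each other. For R403Q-EMPA the exact permutation p was 0.612 against R403Q-CD (adjusted p = 0.753) and 0.143 against WT-EMPA (adjusted p = 0.473). Cox6a2 over Cox6a1 was 4.98 ± 0.12 in WT-CD mice (n = 5) and 5.13 ± 0.15 in WT-EMPA mice (n = 5, exact permutation p = 0.103, adjusted p = 0.473). Cox8b over Cox8a spread more in R403Q-CD mice (2.72 ± 0.46) than in WT-CD mice (2.79 ± 0.13), with R403Q-CD mouse 2 lowest at 1.91 and mouse 4 highest at 3.38. With 4 and 5 mice the smallest p of this test is 0.0159, with 5 and 5 it is 0.00794, with 4 and 7 it is 0.00606 and with 7 and 5 it is 0.00253.

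**Figure D2:**
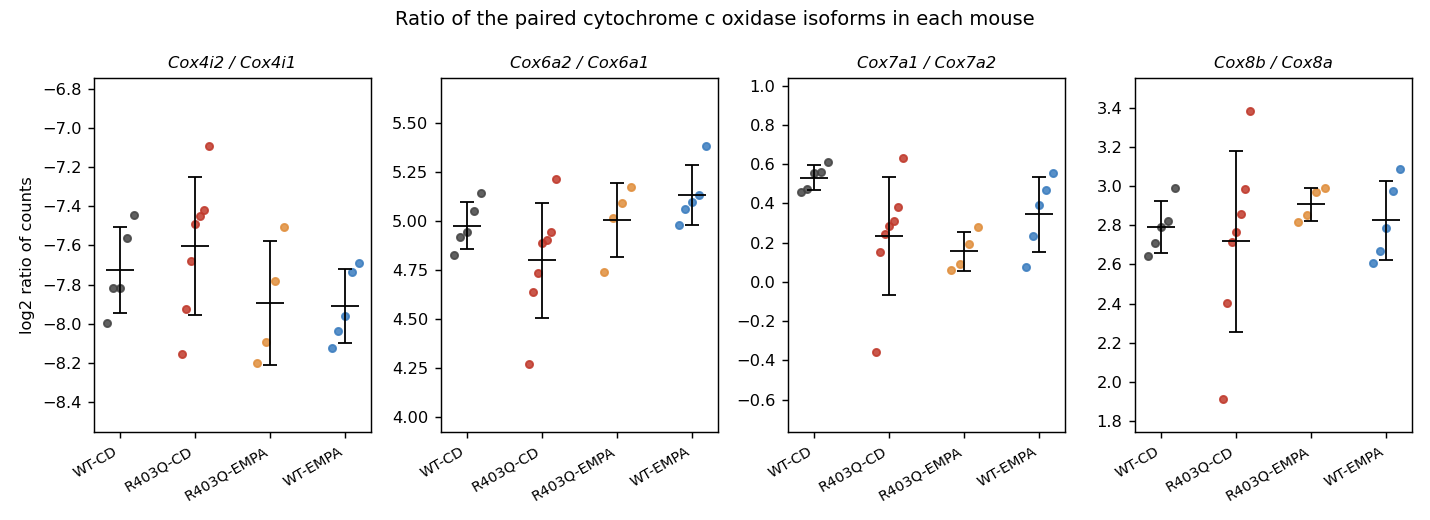
Log2 ratio of the counts of the paired isoforms in each mouse (points) with the mean and SD of each group; each panel spans the same log2 range. The Cox7a1 to Cox7a2 ratio of the 5 WT-CD mice lies between 0.46 and 0.61, and that of the R403Q-CD mice between -0.36 and 0.63.

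R403Q-CD was compared with WT-CD to ask what the mutation does on the control diet. No gene of the 37 passed the adjusted threshold of edgeR's quasi-likelihood test (0.576% of 17025 genes did, which is 98). At an unadjusted p under 0.05, 8 of the 37 passed, all lower, beside 19.6% of all genes. The number was 5 without WT-CD mouse 4 or R403Q-CD mouse 5, and 6 without R403Q-CD mouse 2, when Uqcrfs1 and Cyc1 no longer passed. DESeq2 called 1 of the 37, Cox15, and limma on the variance-stabilized values 0. By the point estimate 22 of 37 were lower, against 47.5% of all genes; scaled to library size alone it was 15 of 37 against 33.5%, without R403Q-CD mouse 2 it was 13 of 37, and without R403Q-CD mouse 4 it was 30 of 37. The median log2 fold change was -0.03 over the 37 genes and 0.01 over all genes. By role the median was -0.23 for complex II, -0.06 for complex III, -0.06 for the assembly factors, 0.02 for the 8 unpaired subunits of complex IV and 0.01 for the 8 paired isoforms. Without R403Q-CD mouse 2 the median over the 37 genes was 0.0123, so that its sign turned. The medians by role were then -0.15 for complex II, 0.00951 for complex III, which turned too, -0.0410 for the assembly factors, 0.0898 for the unpaired subunits and 0.0324 for the paired isoforms. Without R403Q-CD mouse 4 the median was -0.0923 over the 37 genes, -0.13 for complex III, -0.0394 for the unpaired subunits and -0.0700 for the paired isoforms. For the assembly factors the median was -0.0260 without WT-CD mouse 3 and -0.0937 without WT-CD mouse 5.

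Cox15 (GRCm38 chr19:43733254-43753000, minus strand), which makes haem A, had the smallest p of the 37 genes in this contrast. It gave in WT-CD mice 47.3, 51.0, 53.8, 46.5 and 47.1 CPM, in R403Q-CD mice 32.5 to 47.3 (median 38.6), in R403Q-EMPA mice 49.9, 45.8, 43.4 and 43.5, and in WT-EMPA mice 50.5, 47.9, 45.2, 48.4 and 47.0. The R403Q-CD mice lay lowest, and their highest mouse overlapped the WT-CD range. Its log2 fold change in R403Q-CD was -0.29 ± 0.08 (SE; adjusted p = 0.0906). It passed with DESeq2 (adjusted p = 0.0297) and without R403Q-CD mouse 3 (log2 fold change -0.32), and with cage as a block it was -0.32 (adjusted p = 0.108).

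Sdhc (chr1:171127165-171150603, minus strand), a membrane anchor of complex II, had the next smallest p. It gave in WT-CD mice 607, 566, 679, 629 and 588 CPM, in R403Q-CD mice 389 to 587 (median 500.1), in R403Q-EMPA mice 520.0, 531, 495 and 501, and in WT-EMPA mice 614, 558, 566, 624 and 535. Every R403Q-EMPA mouse was below every WT-EMPA mouse. In that contrast the groups did not overlap for 2 of the 37 genes, beside 6.77% of all genes. The R403Q-CD mice overlapped the lower part of the WT-CD range. The log2 fold change was -0.27 ± 0.09 in R403Q-CD against WT-CD (adjusted p = 0.14) and -0.18 ± 0.10 in R403Q-EMPA against WT-EMPA (adjusted p = 0.409).

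Sdha (chr13:74322254-74350280, minus strand), the catalytic subunit of complex II, gave in WT-CD mice 1989, 1739.8, 2004, 2049 and 1955 CPM, in R403Q-CD mice 915 to 1818 (median 1601), in R403Q-EMPA mice 1706, 1668, 1546 and 1685, and in WT-EMPA mice 1969, 1776, 1800.2, 2039 and 1858. Sdha was the other of the 2 genes with every R403Q-EMPA mouse below every WT-EMPA mouse (6.77% of all genes did not overlap). In R403Q-CD against WT-CD the log2 fold change was -0.35 ± 0.13 (adjusted p = 0.172), and it was -0.25 without R403Q-CD mouse 2 (adjusted p = 0.137). The other genes under an unadjusted 0.05 were the copper chaperone Sco1 (-0.22), the complex III genes Uqcrc1 (-0.33), Uqcrfs1 (-0.24) and Cyc1, which is cytochrome c1 (-0.21), and Cox10 (-0.30). Their 95% intervals came closest to 0 for Cyc1 (-0.42 to -0.0041). Over the 37 genes the intervals ran from -0.63 to 0.38, so that changes beyond these bounds lay outside every one of them.

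**Figure D3:**
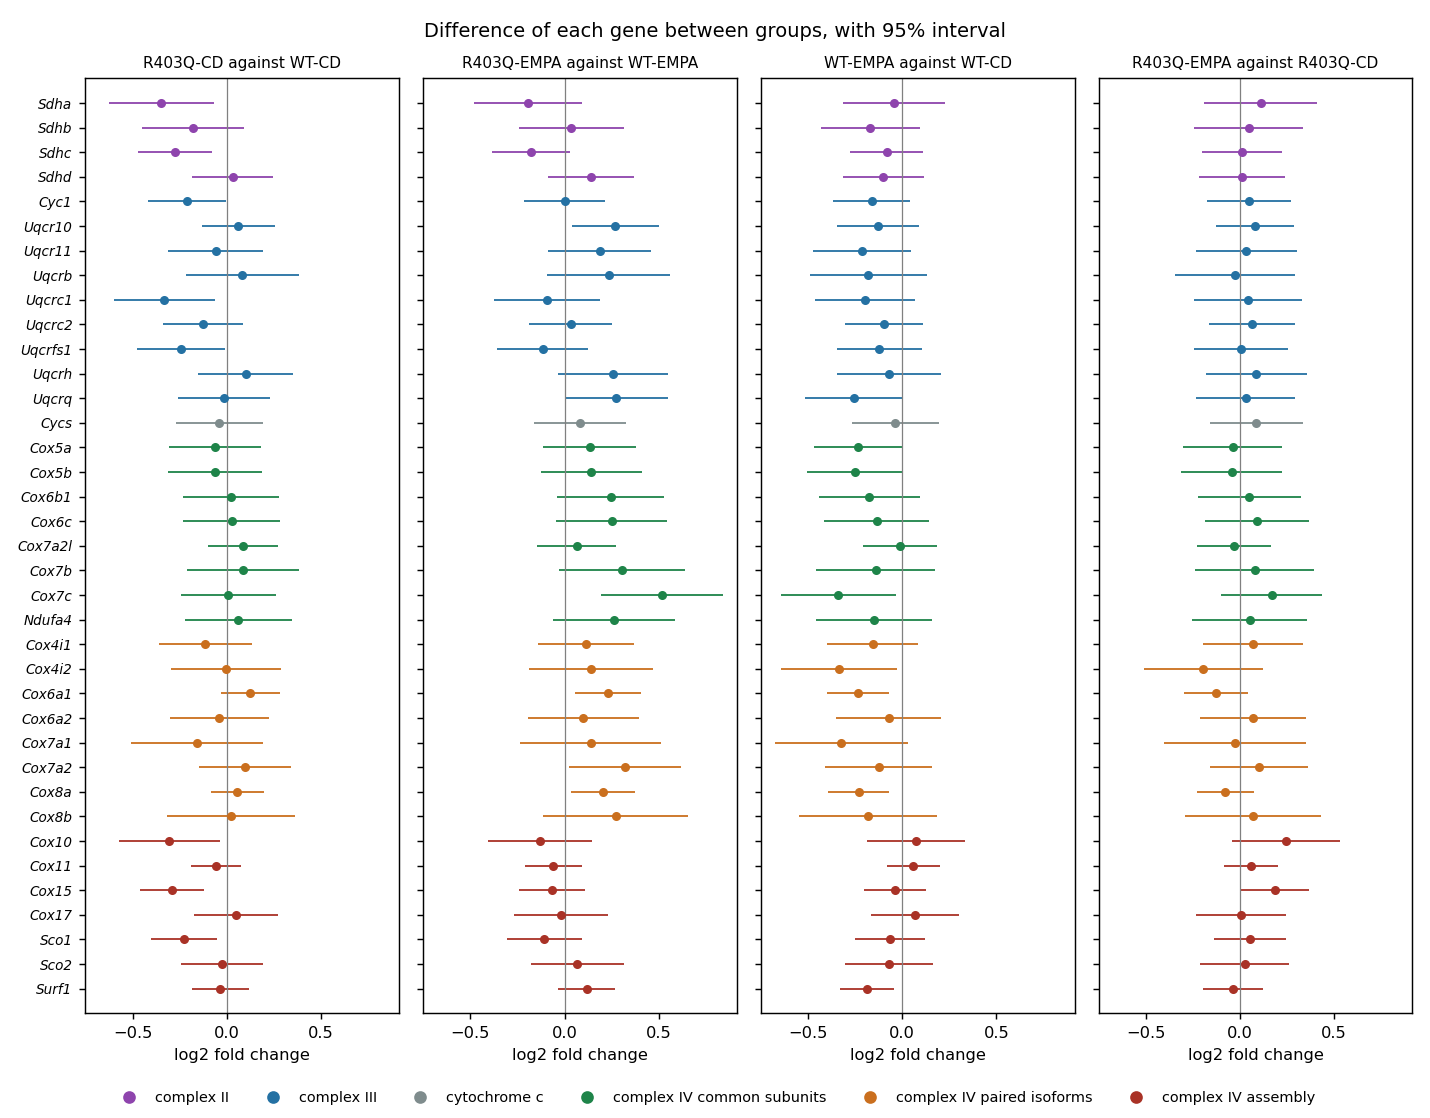
Log2 fold change of each of the 37 genes (points) with its 95% interval (bars) in 4 contrasts, by role. In R403Q-CD against WT-CD 22 genes lie left of 0, and in WT-EMPA against WT-CD 34 do.

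The cardiomyocyte gene sum, which includes Myh6, ran lower in R403Q-CD than in WT-CD mice, with overlap. It was 83518 to 92134 CPM in WT-CD mice and 46257 to 84547 CPM in R403Q-CD mice, and all 7 of its genes were lower by the point estimate, whereas the 4 fibroblast genes summed to 882 to 1412 CPM and 1199 to 2498 CPM and all 4 were higher. Of 3 macrophage genes 1 passed the threshold, higher in R403Q-CD. Their part in the result was not tested.

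R403Q-EMPA was compared with R403Q-CD to ask what EMPA does in mutant hearts. No gene of the 37 passed, and 0% of all genes did (0 of 17025 with edgeR; 12.5% at an unadjusted p under 0.05, and 139 genes with DESeq2). At an unadjusted 0.05, 1 of the 37 passed, Cox15, at 0.18 ± 0.09 on the log2 scale (adjusted p = 0.395). That became 0 without R403Q-CD mouse 1, 2, 4, 5 or 7 or R403Q-EMPA mouse 2, and 2 genes without R403Q-CD mouse 3 or R403Q-EMPA mouse 1. By the point estimate 9 of 37 were lower beside 50.8% of all genes. Scaled to library size alone 13 of 37 were, beside 56.8%. The count was 24 of 37 without R403Q-CD mouse 2 and also 24 without R403Q-EMPA mouse 1, and 4 without R403Q-CD mouse 4. The median over the 37 genes was 0.05, and -0.02 without R403Q-CD mouse 2. DESeq2 called 0 of the 37.

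Cox10 was next by p. It gave in WT-CD mice 88.9, 83.0, 88.1, 96.0 and 78.6 CPM, in R403Q-CD mice 43.3 to 83.7 (median 75.3), in R403Q-EMPA mice 80.4, 78.2, 79.2 and 95.7, and in WT-EMPA mice 99.8, 87.4, 86.7, 93.1 and 89.7. R403Q-CD mouse 2 was the lowest, and the rest of that group overlapped the R403Q-EMPA mice. The log2 fold change in R403Q-EMPA against R403Q-CD was 0.24 ± 0.14 (adjusted p = 0.477), and 0.15 without R403Q-CD mouse 2. The 95% intervals of the 37 genes in this contrast ran from -0.51 to 0.53.

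WT-EMPA was compared with WT-CD for the effect of the EMPA diet in wild-type hearts. No gene of the 37 passed, beside 0.0289% of all genes (5 of 17309), and DESeq2 called 0 of them. At an unadjusted 0.05, 6 of the 37 passed, all lower, beside 11% of all genes. The number was 3 without WT-CD mouse 5, WT-EMPA mouse 1 or WT-EMPA mouse 5, and 9 without WT-EMPA mouse 4. By the point estimate 34 of the 37 were lower, against 50.9% of all genes, with a median log2 fold change of -0.14 beside -0.00356 over all genes. The 3 genes above 0 were the assembly factors Cox10, Cox11 and Cox17. The count of lower genes ran from 33 to 35 when each mouse was left out in turn. Median log2 fold changes were -0.21 for the paired isoforms, -0.16 for the unpaired complex IV subunits, -0.16 for complex III, -0.09 for complex II and -0.04 for the assembly factors.

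Cox8a (log2 fold change -0.23 ± 0.08, adjusted p = 0.287) and Cox6a1 (-0.23 ± 0.08, adjusted p = 0.287), both widely expressed forms, had the smallest p-values in this contrast. Surf1, which assembles complex IV, was the only gene of the 37 whose WT-EMPA and WT-CD mice did not overlap in CPM, which held for 3.45% of all genes. It gave 39.2, 36.3, 40.4, 38.6 and 39.7 CPM in WT-CD mice, 33.7, 33.9, 34.9, 35.0 and 33.0 in WT-EMPA mice, 32.1 to 43.2 (median 37.8) in R403Q-CD mice and 42.3, 35.4, 35.4 and 34.8 in R403Q-EMPA mice. The log2 fold change was -0.19 ± 0.07 (adjusted p = 0.316). In R403Q-CD against WT-CD 0 of the 37 separated the groups in this way, beside 2.15% of all genes, and in R403Q-EMPA against R403Q-CD 0, beside 1.63%.

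Clock genes and markers of other cells also moved with diet in the point estimates. The summed level of 7 genes that peak late in the day was 761 to 964 CPM in WT-CD mice, 673 to 925 in R403Q-CD mice, 478 to 702 in R403Q-EMPA mice and 457 to 852 in WT-EMPA mice. All 7 were lower by the point estimate in both diet contrasts, and the 3 genes that peak late at night were all higher in both, with medians of 0.56 in R403Q and 0.45 in WT mice. The 4 blood genes were all higher in both too (medians 0.57 and 0.56), and summed to 682 to 1238 CPM in WT-CD mice, 844 to 1670 CPM in R403Q-CD mice, 1168 to 2576 CPM in R403Q-EMPA mice and 1184 to 1932 CPM in WT-EMPA mice. The 3 atrial genes were all lower in both (medians -3.40 and -1.43). Their highest sums were those of R403Q-CD mice 2 (608 CPM) and 6 (157 CPM) and WT-CD mouse 5 (260 CPM). All other mice, on either diet, had 2.12 to 78.1 CPM. None of the clock, blood and atrial genes passed the adjusted threshold with edgeR, and their part in the diet contrasts was not tested.

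R403Q-EMPA was compared with WT-EMPA for the effect of the mutation on the EMPA diet. No gene of the 37 passed, beside 0.0578% of all genes (10 of 17309), and DESeq2 called 0 of the 37. At an unadjusted 0.05, 6 passed, all higher, beside 14.7% of all genes; the number was 11 without WT-EMPA mouse 3, 1 without R403Q-EMPA mouse 1, 2 without WT-EMPA mouse 1 or 2, and 3 without WT-EMPA mouse 5 or R403Q-EMPA mouse 3. By the point estimate 9 of the 37 were lower, beside 48.3% of all genes, the count being 15 without R403Q-EMPA mouse 1, and 8 of 37 beside 37.3% with library size alone. All 16 structural subunits of complex IV lay above 0, with medians of 0.25 for the unpaired and 0.17 for the paired ones. For complex III 7 of 9 genes were higher by the point estimate (median 0.19), and the median was -0.07 for complex II and -0.06 for the assembly factors. Without R403Q-EMPA mouse 1 the medians were 0.13 for the unpaired and 0.11 for the paired subunits, 0.0758 for complex III, -0.11 for complex II and -0.0920 for the assembly factors. The groups did not overlap in CPM for 2 of the 37, Sdha and Sdhc, both lower in R403Q-EMPA, beside 6.77% of all genes. Of the summed cell type markers, 3 lists did not overlap between these groups either, whereas endothelial, pericyte and smooth muscle, blood, fat, skeletal muscle and atrial sums did. The cardiomyocyte genes summed to 70346.5 to 79787 CPM in R403Q-EMPA and 84042.5 to 94940 CPM in WT-EMPA mice. By the point estimate 5 of these 7 genes, which include Myh6, were lower and 2 higher (median log2 fold change -0.07). The fibroblast genes summed to 1420 to 1594 and 857 to 1399 CPM, and the macrophage genes to 90.2 to 106 and 57.9 to 80.4 CPM. All 4 fibroblast and all 3 macrophage genes were higher. The part of these lists in the result was not tested.

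Cox7c (chr13:86044816-86046904, minus strand) had the smallest p here. It gave in WT-CD mice 24.5, 27.7, 26.6, 26.2 and 28.0 CPM, in R403Q-CD mice 20.2 to 33.4 (median 25.0), in R403Q-EMPA mice 34.9, 27.4, 32.3 and 25.8, and in WT-EMPA mice 17.2, 17.9, 28.4, 24.2 and 17.6. Of the WT-EMPA mice 3 were under all other mice, and 1 of the other 2 overlapped the R403Q-EMPA mice. The log2 fold change was 0.52 ± 0.16 (adjusted p = 0.149). With the counts of its copies added it was 0.33 ± 0.15 (adjusted p = 0.309). Cox6a1 was next, with 0.23 ± 0.08 (adjusted p = 0.223), then Cox8a (0.21), Uqcr10 (0.27), Cox7a2 (0.32) and Uqcrq (0.27). Uqcr10 and Uqcrq are small complex III subunits.

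The 2 genotype contrasts share no mice. Of the 37 genes, 22 had the same sign in both, beside 71.5% of all genes, and the 8 that were lower in both were Sdha, Sdhc, Uqcrc1, Uqcrfs1, Cox10, Cox11, Cox15 and Sco1. The 2 diet contrasts share no mice either, and 12 of the 37 genes had the same sign in both, beside 65.1% of all genes. Whether EMPA acted differently in R403Q and WT hearts was tested as an interaction. No gene of the 37 passed it, and 0% of all genes did (0 of 17309 with edgeR, 3.28% at an unadjusted 0.05, and 0 with DESeq2). By the point estimate 3 of the 37 interactions were below 0, beside 50.2% of all genes, and the median was 0.17 beside -0.000591. The median was 0.11 without R403Q-EMPA mouse 1 and 0.23 without R403Q-CD mouse 4. The count below 0 ran from 0 to 3 when each mouse was left out in turn. Cox7c alone passed an unadjusted 0.05 (log2 difference 0.51 ± 0.21, adjusted p = 0.999), and it was 0.30 ± 0.20 with its copies added. Without R403Q-EMPA mouse 1 no gene passed an unadjusted 0.05, and without WT-EMPA mouse 1 or 3 or R403Q-CD mouse 3, 4 or 6 there were 2. Cox15 was next (0.22 ± 0.11, adjusted p = 0.999). The intervals of the 37 ran from -0.40 to 0.94, so the data bound the differences only loosely.

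Transcript length ordered the values in both genotype contrasts. In R403Q-EMPA against WT-EMPA, 0 of the 18 genes with a principal transcript under 1 kb were lower by the point estimate (median 0.23), and 6 of the 7 genes of 2 kb and over were (median -0.11). Other genes with at least 100 CPM lay alike: of 166 under 1 kb 10.2% were lower (median 0.21), and of 1224 of 2 kb and over 79.3% were (median -0.11). In R403Q-CD against WT-CD, 7 of the 18 short genes were lower (median 0.02) and 6 of the 7 long ones (median -0.27), beside 28.3% (0.09) and 73.8% (-0.09) of the other genes. The 12 genes of 1 to 2 kb lay between, with 3 lower (median 0.05) in R403Q-EMPA against WT-EMPA and 9 lower (-0.04) in R403Q-CD against WT-CD, beside 41.0% (0.02) and 57.1% (-0.02) of the other genes. In WT-EMPA against WT-CD all 18 short genes were lower (median -0.18), and 5 of the 7 long ones (-0.04), beside 75.9% (-0.09) and 35.0% (0.05). Of the 12 genes of 1 to 2 kb 11 were lower there (-0.13), beside 75.1% (-0.07). The short genes are subunits of complexes III and IV, and the long ones are Sdha, Sdhc, Cycs and 4 assembly factors (Cox10, Cox15, Cox17 and Sco1). Complex III has genes of both shorter classes. In R403Q-CD against WT-CD its 5 genes of 1 to 2 kb had log2 fold changes of -0.33 (Uqcrc1), -0.24 (Uqcrfs1), -0.21 (Cyc1), -0.12 (Uqcrc2) and -0.01 (Uqcrq), and its 4 shorter ones of 0.10 (Uqcrh), 0.08 (Uqcrb), 0.06 (Uqcr10) and -0.06 (Uqcr11). The part of length in these values was not tested.

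**Figure D4:**
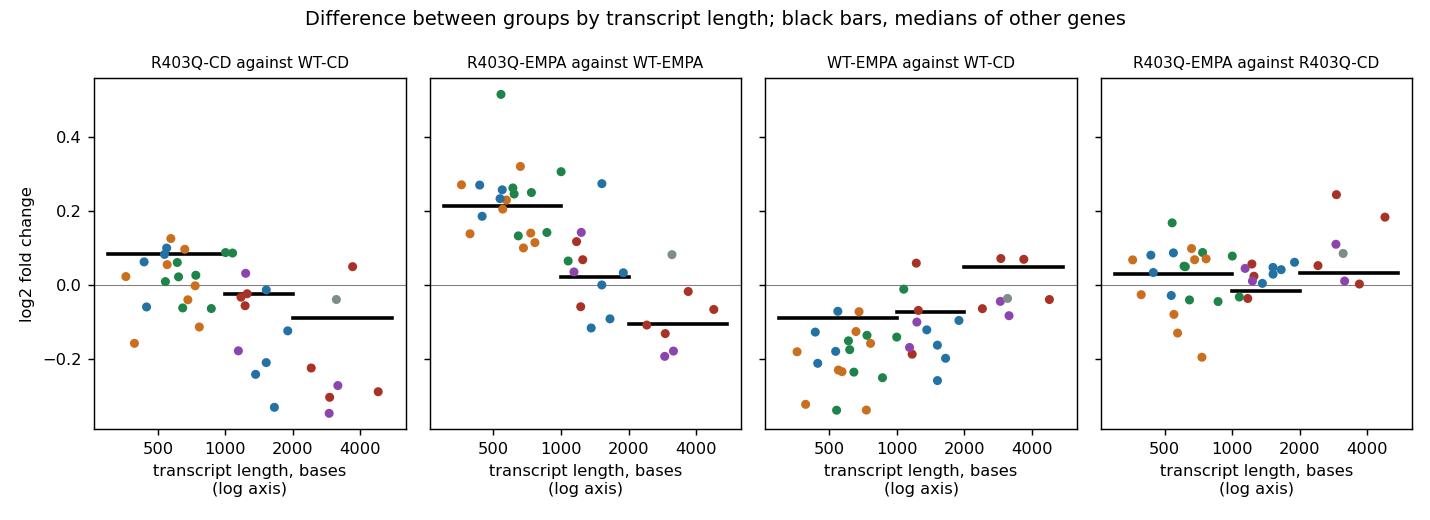
Log2 fold change of the 37 genes (points, coloured by role as in the plot of fold changes) against the length of the principal transcript on a log axis, in 4 contrasts; black bars are the medians of other genes with at least 100 CPM in 3 length classes. In R403Q-EMPA against WT-EMPA the bars fall from 0.21 under 1 kb to -0.11 at 2 kb and over, and the points lie around them.

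Within a group the 37 genes tended to be high or low in the same mice. Among the 7 R403Q-CD mice, mouse 2 was the lowest for 30 of the 37 genes and for 27.5% of all genes, and mouse 4 the highest for 29 of them and for 16.3% of all genes. In WT-CD, mouse 2 was the lowest for 27 genes (20.9% of all genes) and mouse 3 the highest for 23 (21.2%). In R403Q-EMPA, mouse 1 was the highest for 29 (28.7%), and in WT-EMPA, mouse 1 was the lowest for 20 (25.7%). The mean log2 CPM over the 37 genes, set to 0 in WT-CD, was -0.08 ± 0.22 in R403Q-CD (n = 7), -0.03 ± 0.12 in R403Q-EMPA (n = 4) and -0.14 ± 0.12 in WT-EMPA (n = 5), with an SD of 0.09 in WT-CD (n = 5). Without mouse 2 the R403Q-CD mean was -0.0108 ± 0.14 (n = 6). The R403Q-CD mice ran from -0.48 to 0.23 and enclosed every other mouse. For complex II the R403Q-CD mice ran from -0.72 to 0.08, against -0.14 to 0.09 in WT-CD. Without mouse 2 the lowest R403Q-CD values were -0.22 over the 37 genes and -0.40 for complex II. The median SD of a single gene was 0.26 log2 units in R403Q-CD and 0.12 in WT-CD, beside 0.17 and 0.09 for the 1687 other genes with at least 100 CPM.

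**Figure D5:**
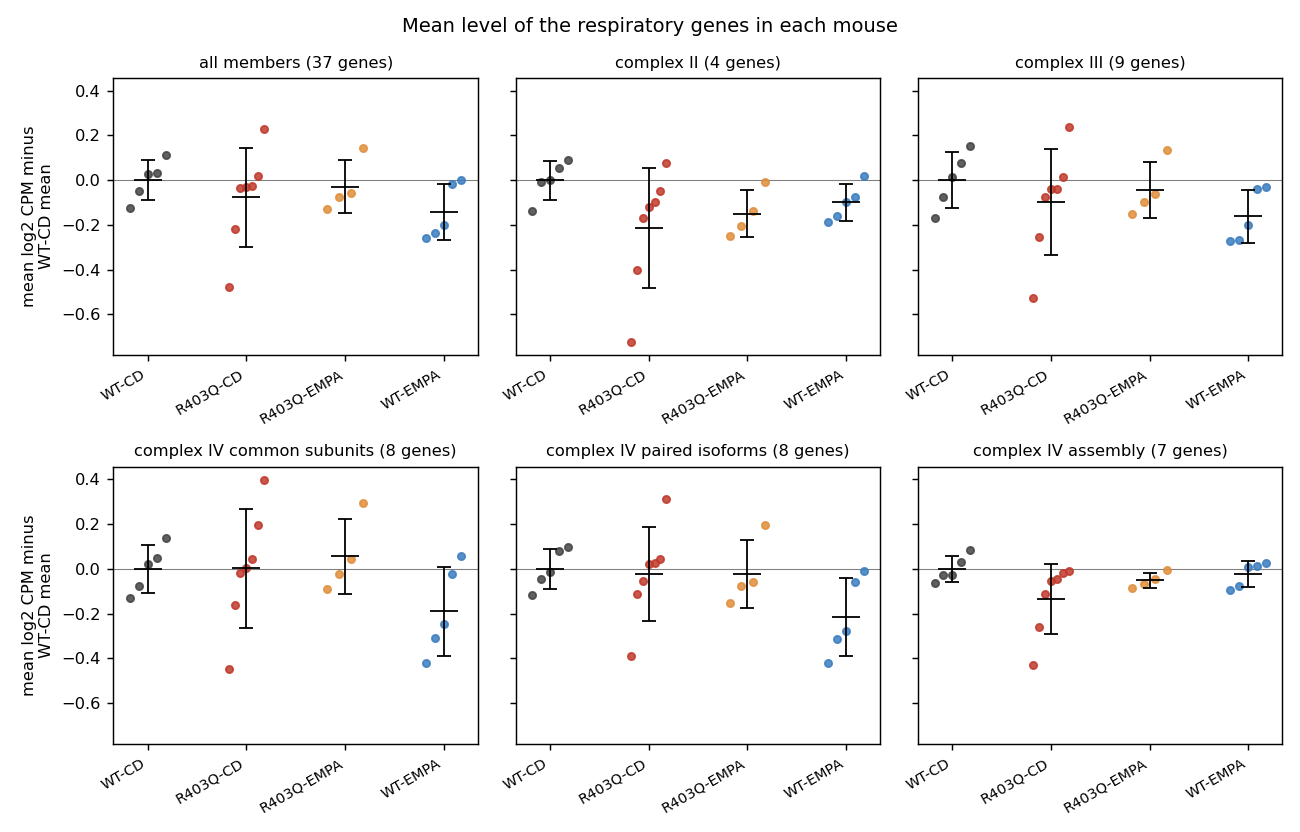
Mean log2 CPM of the genes of each role in each mouse (points), set to 0 at the WT-CD mean, with the mean and SD of each group. R403Q-CD mice spread from -0.48 to 0.23 over all 37 genes and from -0.72 to 0.08 for complex II, and mouse 2 is the lowest in both.

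Other genes of the pathway were read from lists. Of 30 further assembly factors 29 could be tested, and 1 passed in R403Q-CD against WT-CD, beside 0.576% of all genes: Cox19, a copper-handling factor of complex IV assembly. It gave in WT-CD mice 40.9, 42.9, 46.6, 47.4 and 45.3 CPM, in R403Q-CD mice 47.1 to 68.9 (median 58.1), in R403Q-EMPA mice 51.0, 54.1, 54.8 and 47.1, and in WT-EMPA mice 38.6, 43.5, 50.1, 48.9 and 41.0. The lowest R403Q-CD mouse lay just under the highest WT-CD mouse. Cox19 rose by 0.39 ± 0.08 on the log2 scale (adjusted p = 0.04). The call was lost with cage as a block (0.41, adjusted p = 0.0701), with the 2 groups fitted alone (adjusted p = 0.0911) and without any of the 5 WT-CD mice or R403Q-CD mouse 4, 5 or 7. In the other 4 contrasts 0 of the 29 passed.

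None of the 12 transcriptional regulators passed in any contrast. In R403Q-CD against WT-CD 9 of 12 were lower by the point estimate, beside 47.5% of all genes. Among them, named after their values were seen, were the coactivator Ppargc1b (-0.45 ± 0.19, adjusted p = 0.215) and the nuclear receptor Esrrg (-0.25 ± 0.10, adjusted p = 0.177). In R403Q-EMPA against WT-EMPA 9 of 12 were lower too, beside 48.3%, among them Ppargc1a (-0.48 ± 0.21, adjusted p = 0.285). With library size alone the shares of all genes in these contrasts fell to 33.5% and 37.3%. A count of the 12 under that scaling is not given here. In R403Q-EMPA against R403Q-CD 3 of 12 were lower, beside 50.8% of all genes, and among the others was the nuclear receptor Esrrb (0.41 ± 0.14, adjusted p = 0.275). In WT-EMPA against WT-CD 2 of 12 were lower, beside 50.9%. Of the 4 germ-cell isoforms 1, Cox6b2, passed the filter on low counts, at 0.328 ± 0.0787 CPM in WT-CD mice (SD, n = 5). Cox8c had 0 counts in every mouse, which allows at most 0.0689 to 0.128 CPM per mouse (3 counts; counting error only).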

How the data were processed

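Poly(A) RNA of 21 left ventricles was sequenced as read pairs. Per the labels and the study's methods, the authors aligned it to mm10 with STAR 2.6.0c, checked it with FastQC 0.11.7 and made the deposited counts of uniquely aligned proper pairs per non-mitochondrial Ensembl gene with featureCounts (Subread 1.6.2). A deposited table of log2-scale values, variance-stabilized by the authors (DESeq2 1.32.0), served as an alternative. Counts were fitted in R 4.3.3 with edgeR 4.0.16 (filterByExpr, minimum count 10; TMM; quasi-likelihood test; Benjamini-Hochberg threshold 0.05): WT-CD, R403Q-CD and R403Q-EMPA together for their contrasts, all 4 groups for those with WT-EMPA. DESeq2 1.42.0 and limma 3.58.1 were alternatives. CPM used TMM, RPKM the union of GENCODE exons, and isoform ratios a pseudocount of 0.5 and exact permutation (scipy 1.17.1). The code was tested on simulated data. Depth was 23491535 to 43539684 counts.

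Each mouse gave 1 sample, so p-values measure the spread between mice. Mice of different genotype that shared a cage number in the labels deviated together only in part (median correlation 0.211 over 8 pairs on CD, 0.0452 over 4 on EMPA; different cages, -0.0235 over 27 and -0.0207 over 16). The genes and lists were chosen with earlier results of these data known. Values by mouse are given for paired isoforms, the 2 smallest p-values per contrast, genes past the threshold and, chosen after their values were seen, Sdha and Surf1.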

Additional observations from a re-analysis of the deposited data

Results flagged for a closer look

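In 92 groups of mice (28 of mean levels, 16 of isoform ratios and 48 of single genes), 3 mice lay far from the rest of their group by Dixon's test, which by chance happens in about 1 in 20 groups. Cox10 was 95.7 CPM in R403Q-EMPA mouse 4, beside 78.2 to 80.4 CPM in the other mice of that group. Cox4i2 was 10.5 CPM in WT-CD mouse 5, beside 7.52 to 8.10 CPM. Cox7a1 was 541 CPM in R403Q-EMPA mouse 1, beside 459.6 to 465 CPM.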

How the results depend on the processing

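No gene of the 37 passed in any contrast under any alternative, except Cox15 in R403Q-CD against WT-CD (1 gene called with DESeq2, and 0 to 1 when each mouse was left out in turn). The number of all genes called moved more. With DESeq2 it was 806 in R403Q-CD against WT-CD, 139 in R403Q-EMPA against R403Q-CD, 114 in WT-EMPA against WT-CD and 297 in R403Q-EMPA against WT-EMPA. With library size alone it was 0 in WT-EMPA against WT-CD. With all 4 groups in the fit it was 250 in R403Q-CD against WT-CD and 2 in R403Q-EMPA against R403Q-CD, and with the 2 groups alone 28 in R403Q-CD against WT-CD. Leaving out each mouse gave 14 to 630, 0 to 2, 0 to 7 and 1 to 64 genes in these 4 contrasts, in the same order. With cage as a block, 19 genes passed in R403Q-CD against WT-CD and 6 in R403Q-EMPA against WT-EMPA.

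Some isoform ratios near 0 changed sign. Cox4i2 over Cox4i1 in R403Q-EMPA against WT-EMPA was -0.0108 with variance-stabilized values, -0.0702 within cages and -0.12 to 0.12 without each mouse. Cox8b over Cox8a was -0.18 to 0.0615 in R403Q-CD against WT-CD and -0.0316 to 0.0886 in WT-EMPA against WT-CD without each mouse. The cause was not tested. No paired analysis was possible because replicate numbers follow accession order and pair no mice; cage was the block used instead. With 4 to 7 mice a group, the median SE of a log2 fold change was 0.12 in R403Q-CD against WT-CD and 0.17 for the interaction.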
